A study of Mus musculus with 12 samples.

Results

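The interferon-stimulated genes are a set of 40 genes that cells switch on when they sense interferon, named here by gene symbol and looked up in the annotation table of the array. Of the 40, 38 had a probe set assigned to that gene alone, and the probe set with the highest mean over all 12 arrays stood for each gene. The other 2 were Isg15, whose only probe set is shared with a second gene, and Ifi44, for which the table listed no probe set. A further 4 genes (Oas3, Mx1, Mx2 and Cmpk2) had a mean log2 level under 5 and were not tested, which left 34 tested genes among 17925 tested probe sets of 45101 on the array. Each array reported total RNA of thymus from mice aged 7 to 8 weeks, with 3 biological replicates in each of 4 genotypes. Mice titled XX and XY- were gonadal females without Sry, and mice titled XXsry and XY-sry were gonadal males that carried Sry, the gene that starts testis development. In the model from which this naming comes, XY- stands for a Y chromosome that has lost Sry, and Sry is supplied as a transgene, so the presence of testes is separated from the X and Y complement. No group received an agent, and the sources used here name no mouse strain.

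Interferons are secreted proteins that bind receptors on the cell surface and activate the kinases Jak1, Jak2 and Tyk2. Type I interferons act through a complex with Stat2 and Irf9 that binds the interferon-stimulated response element (ISRE), and type II interferon acts through the gamma-activated site (GAS). The induced genes encode sensors of foreign RNA and DNA, proteins that block virus replication, GTPases that attack intracellular pathogens, and inhibitors that shut the signal off. In the thymus, medullary epithelial cells are known to make type I interferon without infection, and maturing thymocytes respond to it.

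Promoter sequence is a feature that the naming of the genes did not use. RefSeq promoter windows (build GRCm38.p6, 250 bases before to 50 bases after an annotated start) were matched by symbol for 28 of the 40 genes. The ISRE core, searched on both strands as GAAA and GAAA with any 2 bases between them, occurred in a window of 16 of these 28 genes (57.1%), against 3.99% of the 27025 genes with a window of that length. The GAS core TTCNNNGAA, which reads the same on both strands, occurred in 7 of 28 (25.0%) against 9.55% of all genes, and 1 of these matches, in Bst2, overlapped an ISRE match. The 150 bases before the start are printed for 5 genes that are among the 8 with the smallest p-values for the difference between males and females. They read 5′ to 3′ on the strand of the gene, and capitals mark the ISRE core, which reads TTTC and TTTC with 2 bases between them where it lies on the opposite strand. Trim30a is at chr7:104465194-104465343 on the minus strand, and its core begins 36 bases before the start. Gbp2 is at chr3:142620513-142620662 on the plus strand, with a core that begins 59 bases before the start. Bst2 is at chr8:71537473-71537622 on the minus strand, with overlapping cores at 130 and 124 bases. Ifit1 is at chr19:34640739-34640888 on the plus strand, with separate cores at 104 and 85 bases. Oas1a is at chr5:120907526-120907675 on the minus strand, with overlapping cores at 20 and 14 bases. RefSeq lists a second Trim30a window, whose core begins after its start and is not printed.
Trim30a: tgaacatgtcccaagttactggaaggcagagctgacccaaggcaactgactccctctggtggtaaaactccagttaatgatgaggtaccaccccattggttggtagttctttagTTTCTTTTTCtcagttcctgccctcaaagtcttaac
Gbp2: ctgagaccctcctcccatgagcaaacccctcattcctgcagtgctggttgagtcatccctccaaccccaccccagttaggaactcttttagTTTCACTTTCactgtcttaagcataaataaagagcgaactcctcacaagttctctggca
Bst2: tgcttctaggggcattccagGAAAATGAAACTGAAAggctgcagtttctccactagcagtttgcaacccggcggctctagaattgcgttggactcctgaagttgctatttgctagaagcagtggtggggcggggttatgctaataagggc
Ifit1: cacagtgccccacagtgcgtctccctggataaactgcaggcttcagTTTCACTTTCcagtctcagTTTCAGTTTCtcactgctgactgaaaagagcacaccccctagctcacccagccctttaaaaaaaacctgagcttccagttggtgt
Oas1a: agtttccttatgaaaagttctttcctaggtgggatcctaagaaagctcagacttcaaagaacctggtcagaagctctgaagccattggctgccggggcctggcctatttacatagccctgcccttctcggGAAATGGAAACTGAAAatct
These matches describe letters in a window and do not show that a factor binds there. Among tested genes with the core in a window, 7 of 14 were lower in males than in females by the test described next, with a median log2 difference of -0.26. Among those with a window and no core, 5 of 10 were lower, with a median of -0.18, and of the 10 tested genes without a window 6 were lower.

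Genes that define the genotypes matched the labels on all 12 arrays. Sry ranged from 6.74 to 7.20 on the log2 scale in its carriers and from 5.23 to 5.65 in the others. Xist read 11.10 to 11.63 in XX arrays and at most 4.19 in XY- arrays, and the Y-linked gene Eif2s3y read at least 7.14 in XY- arrays and at most 2.28 in XX arrays. Of the genes that define developing thymocytes, Rag1 averaged 11.85, Dntt 11.64 and Cd8a 11.36. Array medians lay between 4.02 and 4.10, and 3 arrays a group limit the precision of every comparison.

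Interferon-stimulated genes were lower in the thymus of males than of females. Of 34 tested genes, 18 fell in males at an adjusted p under 0.05, and 0 rose, whereas 2.61% of all tested probe sets fell and 3.95% rose (limma, Benjamini-Hochberg adjustment over all 17925 probe sets, 6 male against 6 female arrays). The log2 difference, males minus females, ranged from -0.56 (Trim30a) to 0.07 (Ly6e) with a median of -0.28, that is 17.4% lower, against a median of 0.02 over all tested probe sets. In all, 32 of the 34 lay below zero, compared with 42.3% of all tested probe sets. An unadjusted p under 0.05 was found for 28, each of them lower in males. Of all tested probe sets, 9.82% were lower at that cut, and 24.9% passed it in either direction. Averaged over the 34 genes, after each gene's mean over the 12 arrays was taken out, the 6 female arrays stood between 0.03 and 0.27 and the 6 male arrays between -0.20 and 0.00. The female and male arrays did not overlap on this average. XX replicate 1 stood highest at 0.27, with 32 of 34 genes above their own mean, and XY- replicate 3 followed at 0.21, also with 32. XXsry replicate 3, at -0.13, had 0 of 34 above their own mean. The tissue is bulk, so fewer cells that express these genes and less RNA per cell cannot be told apart.

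**Figure D1:**
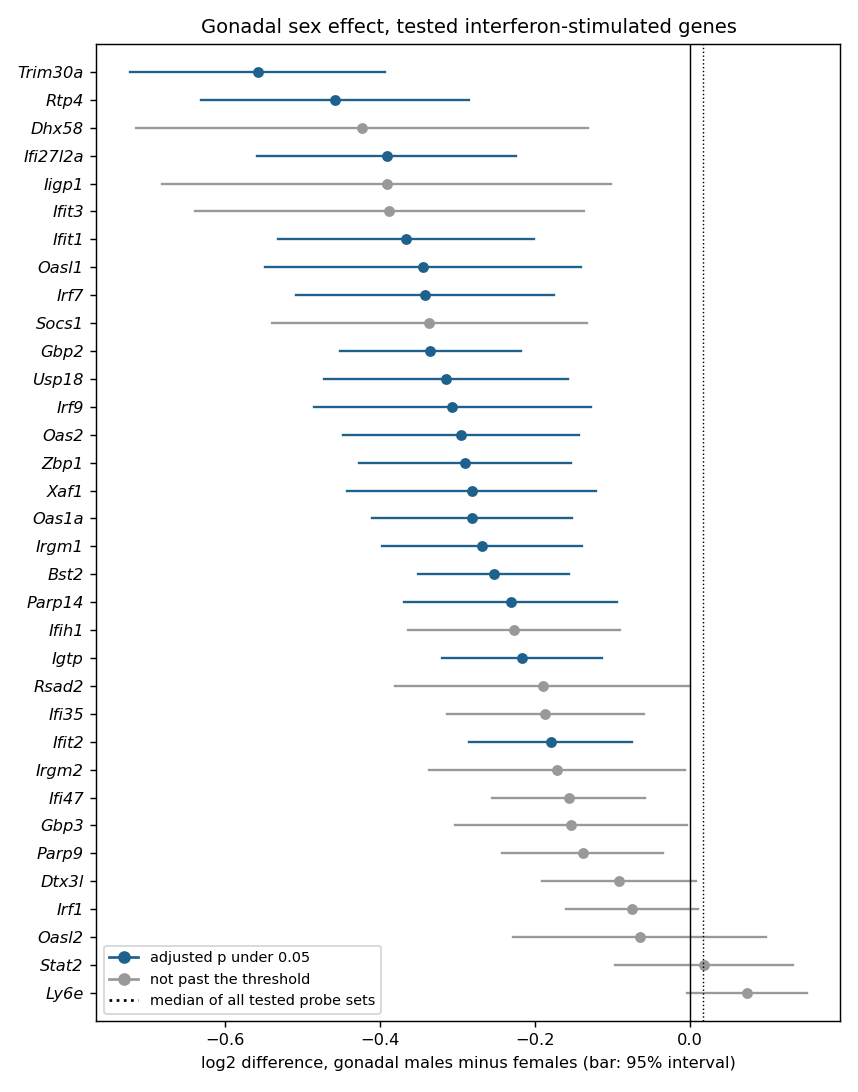
Log2 difference of males minus females (horizontal axis) for each of the 34 tested genes, ordered by that difference, with 95% intervals from limma; blue points passed an adjusted p of 0.05, grey points did not, and the dotted line is the median of all tested probe sets (0.02). Of the 34 points, 32 lie left of zero and 18 are blue, all of them on the left.

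**Figure D2:**
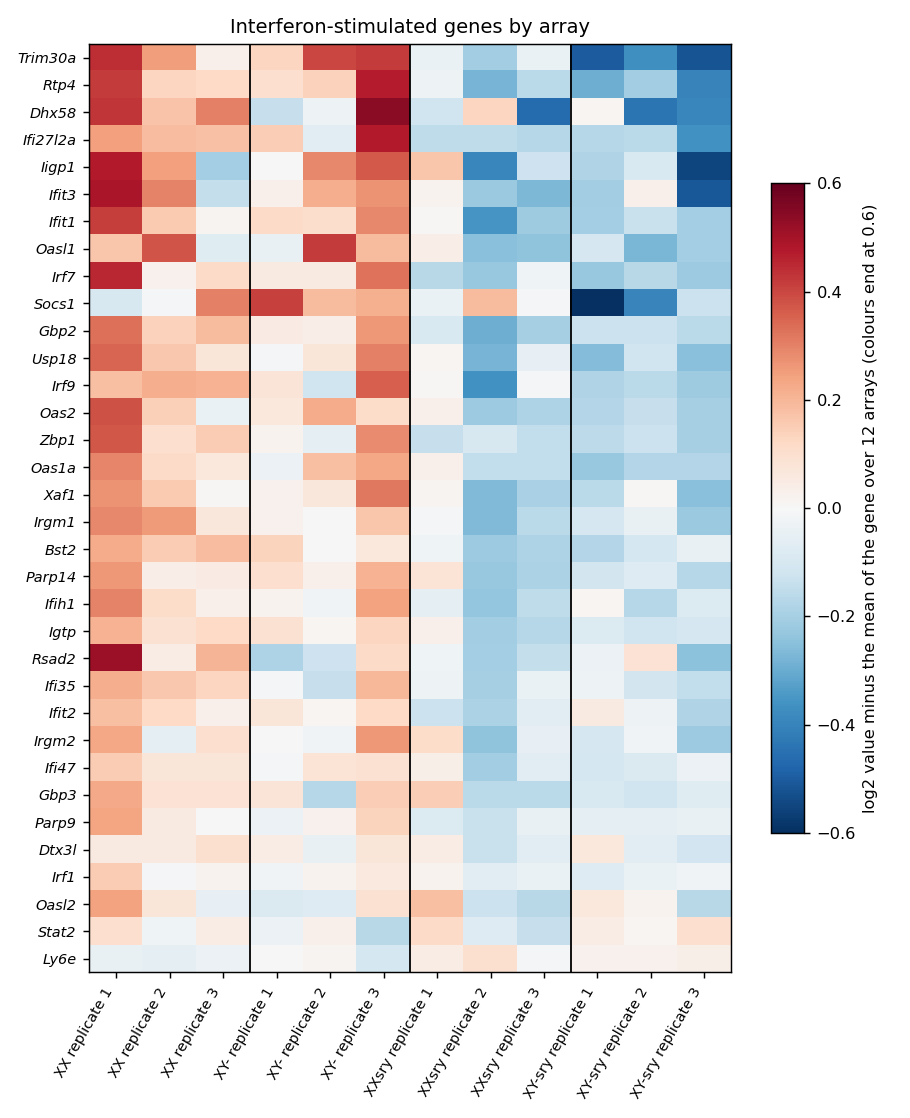
Level of each tested gene (rows) on each of the 12 arrays (columns, grouped by genotype), as the log2 deviation from that gene's mean over the 12 arrays, in colours that end at 0.6 either way. The columns of XX and XY- are mostly above the mean and those of XXsry and XY-sry mostly below it, with Socs1 and Ly6e among the rows that differ.

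The count of 18 depended on which arrays entered. It was 9 without XX replicate 1, 11 without XX replicate 2, 11 without XY-sry replicate 1, 8 without XY-sry replicate 3, 7 without XXsry replicate 2 and 7 without XXsry replicate 3, and between 7 and 20 over all 12 such fits. In the 6 fits named, 2.91% to 4.08% of all tested probe sets were called in either direction, against 6.56% with all arrays. Over all 22 alternatives the median of the 34 genes stayed between -0.29 and -0.24. Trim30a, Gbp2, Rtp4, Bst2 and Ifi27l2a fell in each of these alternatives. Ifit1 fell in 21 of the 22, Zbp1 in 20, Irf7 and Oas1a in 19, Igtp in 17, and Irgm1 and Usp18 in 15. Irf9 and Xaf1 fell in 9 of 22 and Ifit2 and Parp14 in 8, and of the 21 alternatives that tested them Oas2 fell in 13 and Oasl1 in 9. A measure of RNA quality moved with the groups: the difference between the actin probe sets at the 3′ and 5′ ends was 0.74 to 0.83 in XY-sry and 0.51 to 0.69 in XY-, against 0.66 to 0.77 in XX and 0.71 to 0.76 in XXsry. With that difference as a covariate, 8 genes fell, and 4.83% of all tested probe sets were called. The genes that no longer passed then were Irf9, Ifit1, Ifit2, Oas1a, Oas2, Oasl1, Irgm1, Parp14, Usp18 and Xaf1.

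Among the transcription factors that carry the interferon signal to DNA, 2 of 4 fell in males. Irf7, which amplifies interferon production, had a log2 difference of -0.34 ± 0.076 (SE, adjusted p = 0.025, limma), and its 6 male arrays all lay below its 6 female arrays. That call was lost without XY-sry replicate 1 (adjusted p = 0.0551), XY-sry replicate 3 (0.0593) or XXsry replicate 2 (0.0618). Irf9, the DNA-binding subunit of the type I complex, fell as well, with a difference of -0.31 ± 0.082 (adjusted p = 0.0476), and over 22 alternatives its adjusted p ran from 0.00677 to 0.0989. Irf1, a factor induced most strongly by type II interferon, had a difference of -0.08 ± 0.039 (adjusted p = 0.258), and Stat2 one of 0.02 ± 0.053 (adjusted p = 0.872). A second probe set of Stat2 gave -0.11 (adjusted p = 0.265).

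Of the 3 tested sensors of foreign nucleic acid, 1 fell. Zbp1, which binds left-handed nucleic acid and can start cell death, read 7.51, 7.24 and 7.29 in XX and 7.16, 7.08 and 7.42 in XY-, against 7.00, 7.04 and 6.99 in XXsry and 6.98, 7.01 and 6.94 in XY-sry. All male arrays were below all female arrays, and the males varied less among themselves than the females. The difference was -0.29 ± 0.063 (adjusted p = 0.022), and its other probe set also fell (-0.45, adjusted p = 0.00752). The call on the first probe set was lost without XY-sry replicate 3 (adjusted p = 0.056) and without XXsry replicate 3 (adjusted p = 0.0564). Ifih1 (MDA5), a sensor of long double-stranded RNA, had a difference of -0.23 ± 0.063 that just missed the threshold (adjusted p = 0.0523). Dhx58 (LGP2), its partner, had a larger error (-0.42 ± 0.134, adjusted p = 0.079), and its mean level of 5.33 was close to the limit of 5.

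The antiviral effectors were the largest group, and 7 of 11 tested fell in males. Rtp4, a chaperone that restrains viral RNA replication, read 8.54, 8.25 and 8.24 in XX and 8.22, 8.26 and 8.59 in XY-, against 8.09, 7.84 and 7.96 in XXsry and 7.83, 7.91 and 7.72 in XY-sry. Every male array was below every female array. Its difference was -0.46 ± 0.079 (adjusted p = 0.00794). Bst2 (tetherin), which holds budding virus at the cell surface, read 7.59, 7.52 and 7.55 in XX and 7.50, 7.37 and 7.43 in XY-, against 7.34, 7.15 and 7.18 in XXsry and 7.19, 7.26 and 7.32 in XY-sry. The sexes again did not overlap, although XXsry replicate 1 came close to XY- replicate 2. The difference was small but had a small error (-0.25 ± 0.045, adjusted p = 0.00844).

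Ifit1, which binds viral RNA that lacks the host's cap methylation, read 7.27, 7.01 and 6.87 in XX and 6.97, 6.96 and 7.14 in XY-, against 6.86, 6.50 and 6.64 in XXsry and 6.65, 6.72 and 6.65 in XY-sry. XXsry replicate 1 came just below XX replicate 3, and the sexes did not overlap. Its difference was -0.37 ± 0.076 (adjusted p = 0.0188), and the adjusted p was 0.0576 with the actin difference as a covariate. Oas1a, which makes the oligoadenylate that activates RNase L, read 7.65, 7.47 and 7.42 in XX and 7.32, 7.54 and 7.59 in XY-, against 7.39, 7.21 and 7.21 in XXsry and 7.13, 7.18 and 7.18 in XY-sry. Here XXsry replicate 1 was above XY- replicate 1, so the sexes overlapped by that pair of arrays. The difference of -0.28 ± 0.059 (adjusted p = 0.0202) missed the threshold without XXsry replicate 2 (adjusted p = 0.0517), without XXsry replicate 3 (adjusted p = 0.0547) and with the actin covariate (adjusted p = 0.0791).

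**Figure D3:**
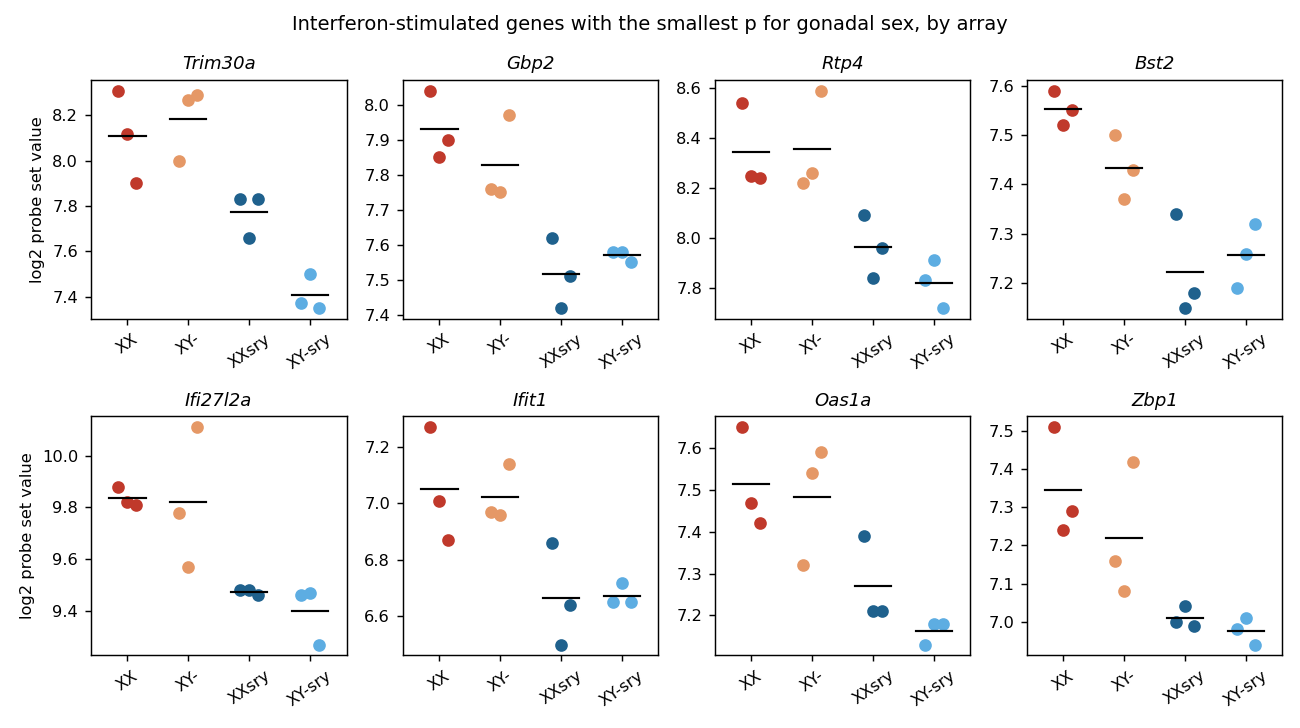
Log2 level (vertical axes) on each of the 12 arrays for the 8 genes with the smallest p for the difference between sexes; points are arrays, bars are group means and each panel has its own axis range. All XXsry and XY-sry points lie below all XX and XY- points except in Oas1a, where XXsry replicate 1 (7.39) is above XY- replicate 1 (7.32).

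The other effectors that fell were Oasl1 (-0.35, adjusted p = 0.0495), Oas2 (-0.30, adjusted p = 0.0303) and Ifit2 (-0.18, adjusted p = 0.0483). Ifit3, of the same family, had a difference of -0.39 ± 0.115 that did not pass (adjusted p = 0.0661). The remaining tested effectors were Rsad2 (viperin, which makes a chain-terminating nucleotide) at -0.19, Oasl2 at -0.07 and Ly6e, a lipid-anchored surface protein, at 0.07. A second Ly6e probe set gave -0.33 (adjusted p = 0.0782), so its probe sets disagreed in sign. Of the 4 effectors under the level limit, Oas3 read 4.66 to 5.01 in females and 4.40 to 4.63 in males, without overlap. Mx1 read 4.83 to 5.47 in females and 4.42 to 4.95 in males, Mx2 4.61 to 5.04 and 4.66 to 4.89, and Cmpk2 4.53 to 5.01 and 4.27 to 4.73. These last 3 overlapped between the sexes.

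Among the interferon-inducible GTPases, which assemble on pathogen membranes, 3 of 7 fell and all 7 had differences below zero. Gbp2, a guanylate-binding protein, read 8.04, 7.85 and 7.90 in XX and 7.76, 7.75 and 7.97 in XY-, against 7.62, 7.42 and 7.51 in XXsry and 7.58, 7.58 and 7.55 in XY-sry. No male array reached the lowest female array. The difference was -0.34 ± 0.053 (adjusted p = 0.00519), and the other Gbp2 probe set also fell (-0.24, adjusted p = 0.0191). Irgm1, a regulatory immunity-related GTPase, fell by 0.27 (adjusted p = 0.024) with no overlap between sexes. Igtp (Irgm3), another regulator of the family, fell by 0.22 (adjusted p = 0.0232). Iigp1, an effector of the same family, had a difference as large as several that passed but a larger error (-0.39 ± 0.133, adjusted p = 0.0973). Ifi47 (-0.16), Irgm2 (-0.17) and Gbp3 (-0.15) did not pass, with adjusted p from 0.0604 to 0.191.

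The proteins that attach ubiquitin or ADP-ribose, or carry a TRIM domain, held the largest difference of the list, and 2 of 4 fell. Trim30a, a TRIM protein that dampens inflammatory signalling, read 8.31, 8.12 and 7.90 in XX and 8.00, 8.27 and 8.29 in XY-, against 7.83, 7.66 and 7.83 in XXsry and 7.37, 7.50 and 7.35 in XY-sry. XY-sry was the lowest group, XXsry lay between it and the females, and no male array overlapped a female array. The difference was -0.56 ± 0.075 (adjusted p = 0.00217), or 32.1% lower in males, and a second probe set gave -0.34 ± 0.064 (adjusted p = 0.0114). Parp14, an ADP-ribosyltransferase, fell by 0.23 (adjusted p = 0.0495). Parp9 and Dtx3l, which work as a pair, had differences of -0.14 (adjusted p = 0.102) and -0.09 (adjusted p = 0.234). The 6 male arrays of Parp9 were nevertheless all below its 6 female arrays, and a second Dtx3l probe set did fall (-0.25, adjusted p = 0.0178).

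Both inhibitors of interferon signalling had differences below zero, and 1 passed. Usp18, which removes Isg15 from proteins and blocks the type I receptor, fell by 0.32 (adjusted p = 0.0272). Socs1, which inhibits the Jak kinases, had a difference of -0.34 ± 0.093 (adjusted p = 0.0523). Socs1 read 6.92, 7.01 and 7.32 in XX and 7.43, 7.21 and 7.23 in XY-, against 6.98, 7.21 and 7.01 in XXsry and 6.39, 6.62 and 6.89 in XY-sry. Only XY-sry stood below the other groups, and XXsry overlapped XX fully.

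Of the 3 remaining tested genes, 2 fell. Ifi27l2a, a small membrane protein, read 9.88, 9.82 and 9.81 in XX and 9.78, 9.57 and 10.11 in XY-, against 9.48, 9.48 and 9.46 in XXsry and 9.46, 9.47 and 9.27 in XY-sry. The males were below all females, and XY- was the most variable group. The difference was -0.39 ± 0.077 (adjusted p = 0.0151). Xaf1, an interferon-induced promoter of apoptosis, fell by 0.28 (adjusted p = 0.0444). Ifi35 read 9.58, 9.52 and 9.49 in XX and 9.35, 9.22 and 9.56 in XY-, against 9.33, 9.16 and 9.32 in XXsry and 9.33, 9.25 and 9.21 in XY-sry. XX alone stood above all male arrays, and the difference between sexes was -0.19 ± 0.058 (adjusted p = 0.0752).

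Across the list, 10 of 34 genes had every male array below every female array, against 1.21% of all tested probe sets: Irf7, Zbp1, Ifit1, Bst2, Rtp4, Gbp2, Irgm1, Parp9, Trim30a and Ifi27l2a. Several genes of the list lie side by side. In the order of protein-coding genes Igtp neighbours Irgm2, Parp14 neighbours Dtx3l and Dtx3l neighbours Parp9, Ifit2 neighbours Ifit3, and Oasl2 neighbours Oasl1. Genes of the Ifit, Oas, Gbp, Irgm and Trim30 families have close paralogs, and the deposited values do not show how far a probe set responds to more than 1 of them.

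The comparison was then made within each chromosome complement, which asks whether Sry has the same association on both. In XX mice 2 of 34 genes, Bst2 and Gbp2, fell with Sry, against 0.351% of all tested probe sets, and in XY- mice 5 of 34 fell (Oas1a, Rtp4, Trim30a, Socs1 and Ifi27l2a), against 4.37% (8.64% of all probe sets were called in either direction). None rose in either. The median difference was -0.29 in XX and -0.24 in XY-, compared with 0.00 and 0.04 over all tested probe sets, and 31 genes lay below zero in both, the exceptions being Stat2, Rsad2 and Ly6e. The 3 XXsry arrays lay below the 3 XX arrays for 21 of 34 genes (10.6% of all tested probe sets). The 3 XY-sry arrays lay below the 3 XY- arrays for 21 of 34 (9.39%). Above, without overlap, lay 1 gene in each, Ly6e, against 10.8% and 18% of all tested probe sets.

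Bst2 fell by 0.33 in XX (adjusted p = 0.0368) and differed by -0.18 in XY- (adjusted p = 0.103). Gbp2 fell by 0.41 in XX (adjusted p = 0.0325) and differed by -0.26 in XY- (adjusted p = 0.0564). Neither call in XX held under most fits that left out 1 array, and the count in XX was 0 without XX replicate 1, 2 or 3, without XY-sry replicate 1 or 3, without XXsry replicate 2 or 3, and without XY- replicate 1. Without XY-sry replicate 2 the count was 1, without XXsry replicate 1 it was 3, without XY- replicate 2 it was 2 and without XY- replicate 3 it was 4. In the fits with a count of 0, 0.206% to 0.536% of all tested probe sets were called, against 0.742% with all arrays. Trim30a fell by 0.78 in XY- (adjusted p = 0.0036) and differed by -0.34 in XX (adjusted p = 0.216). Rtp4 fell by 0.54 in XY- (adjusted p = 0.0156) and differed by -0.38 in XX (adjusted p = 0.191). Socs1 fell by 0.66 in XY- (adjusted p = 0.0133) and differed by -0.02 in XX (adjusted p = 0.977). Ifi27l2a fell by 0.42 (adjusted p = 0.0355) and Oas1a by 0.32 (adjusted p = 0.0376) in XY-. The count in XY- was 1 without XY-sry replicate 1 (3.14% of all tested probe sets called) and 2 without XY-sry replicate 3 (3.01%). It was 3 without XX replicate 2, XY-sry replicate 2, XXsry replicate 3 or XY- replicate 3 (6.67% to 8.12%). Without each of the other 6 arrays the count was 4 to 7 (6.26% to 8.51%). With the actin difference as a covariate it was 0, and the share of all tested probe sets called dropped from 8.64% to 0.301%. In that fit Trim30a differed by -0.63 (adjusted p = 0.0885) and Socs1 by -0.78 (adjusted p = 0.0955).

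**Figure D4:**
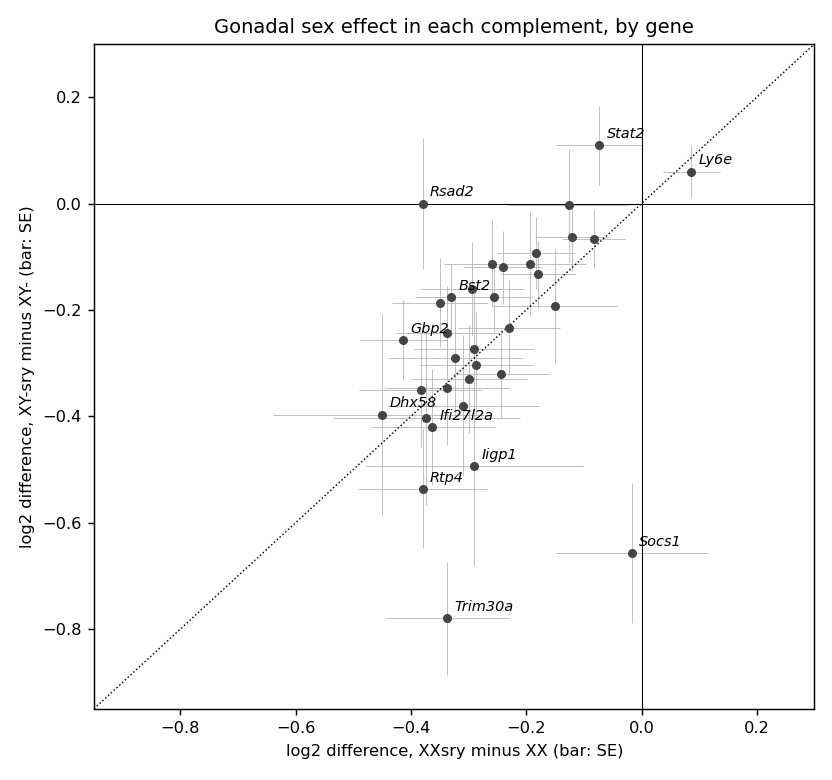
Log2 difference of XXsry minus XX (horizontal axis) against XY-sry minus XY- (vertical axis) for the 34 tested genes, with standard errors as bars and the dotted line of equal differences. Most points lie below zero on both axes; Trim30a and Socs1 lie lower on the vertical axis and Rsad2 is at -0.38 on the horizontal and 0.00 on the vertical axis.

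The difference between these effects was tested itself, as the interaction of Sry and complement. No gene of the 34 passed, against 1.29% of all tested probe sets (1.03% with the sex effect lower in XY-). An unadjusted p under 0.05 was found for 2 of 34 genes, against 13.4% of all tested probe sets, so these genes do not stand out from the background. Socs1 had an interaction of -0.64 (95% interval -1.05 to -0.23, adjusted p = 0.137), and Trim30a one of -0.44 (-0.77 to -0.11, adjusted p = 0.212), both with the larger fall in XY-. The second Trim30a probe set gave an interaction of 0.03. The second Ly6e probe set, which did not stand for the gene, gave a larger interaction, -1.13. The Ly6e probe set that stood for the gene gave -0.03. Rsad2 had the opposite sign, at 0.38 (adjusted p = 0.375), with an interval from just below zero to 0.76. It read 6.69, 6.22 and 6.38 in XX, 6.15, 5.97 and 6.03 in XXsry, 5.99, 6.05 and 6.29 in XY- and 6.14, 6.26 and 5.93 in XY-sry, so XX was above XXsry while XY- and XY-sry overlapped. For 27 of 34 genes the interval of the interaction lay within 0.5 of zero. For the other 7 it reached further.

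XX and XY- thymus were next compared at equal Sry status, the question in the title of the series. No gene of the 34 passed for XX minus XY- averaged over Sry status, against 0.0893% of all tested probe sets, and none had an unadjusted p under 0.05 (smallest 0.0785, Trim30a), against 4.25% of all. The median difference was 0.04 against 0.01 over all probe sets. Only 3 of the 34 genes lay below zero, against 44.5% of all tested probe sets, and the highest difference was 0.15. All 34 intervals lay within 0.5 of zero, from a lowest bound of -0.23 (Iigp1) to a highest of 0.44 (Dhx58). Without Sry, 0 of 34 passed (0.0781% of all), and 1 had an unadjusted p under 0.05 (10.6% of all), Rsad2 (0.32 higher in XX, adjusted p = 0.39, limma). With Sry, 0 passed (0.128% of all), and 2 had an unadjusted p under 0.05 (8.55% of all), Trim30a (0.37 higher in XXsry, adjusted p = 0.242) and Socs1 (0.43 higher in XXsry). Intervals lay within 0.5 of zero for 32 and 30 of the 34 genes. Below zero lay 6 of 34 genes without Sry (38.6% of all) and 14 with Sry (55.6% of all).

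Within groups the genes also varied together. After group means were taken out, the median Pearson correlation over the 12 arrays was 0.554 among the 561 pairs of genes, with 482 pairs above zero and 311 above 0.5. These are correlations over arrays that share their RNA and normalisation, given as a description. Socs1 and Ly6e ran opposite to most others. Among the 9495 other genes measured, those most like Trim30a were Carnmt1 (r = 0.938), Iigp1 (0.883) and Runx3 (0.881). Those most like Gbp2 were Slfn1 (0.979), H2-M3 (0.965) and Ncoa7 (0.960). Those most like Rtp4 were Gbp2 (0.949), Gda (0.949) and Usp18 (0.935).

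The rest of the pathway was read from lists of ligands, receptors, sensors and further target genes. Of 13 interferon genes, 8 had a probe set of their own and none reached the level limit, with means from 2.39 to 3.17, among them Ifnb1 (2.85) and Ifng (2.65). The receptors and kinases gave 0 of 8 called in limma (6.56% of all tested probe sets in either direction). Their median was -0.06. Of the 8, 1 gene, Ifngr2, had an unadjusted p under 0.05 (24.9% of all tested probe sets in either direction). Jak1, the kinase shared by all interferon receptors, was the gene of that list with the highest mean signal and had a difference of -0.05. Of 13 tested genes that detect nucleic acid or relay that signal, 1 fell and 12 did not pass. Of all tested probe sets 2.61% fell, and 6.56% were called in either direction. The gene was Samhd1, which depletes the nucleotides a virus needs (-0.38 ± 0.067, adjusted p = 0.00949, limma). The median of the 13 was -0.06, and 4 of them lay above zero.

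Of 43 other interferon-induced genes, 13 fell in males and 0 rose, against 2.61% and 3.95% of all tested probe sets. Cxcl10, a chemokine that attracts Cxcr3-bearing T cells, fell by 0.89 ± 0.078 (adjusted p = 0.000117). Slfn1, a regulator of thymocyte growth, fell by 0.74 ± 0.090 (adjusted p = 0.00129), and its relative Slfn2 by 0.34 (adjusted p = 0.0023). The guanylate-binding protein Gbp6 fell by 0.40 (adjusted p = 0.002), Ifit1bl1 by 0.69 (adjusted p = 0.00258) and Samd9l by 0.27 (adjusted p = 0.00651). The other 7 that fell were Ddx60, Cxcl9, Epsti1, Tapbp, Slfn8, Herc6 and Gbp7. The immunoproteasome subunits Psmb8 (-0.0033) and Psmb9 (-0.0017) on the same list did not pass. The median of the 43 was -0.10.

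**Figure D5:**
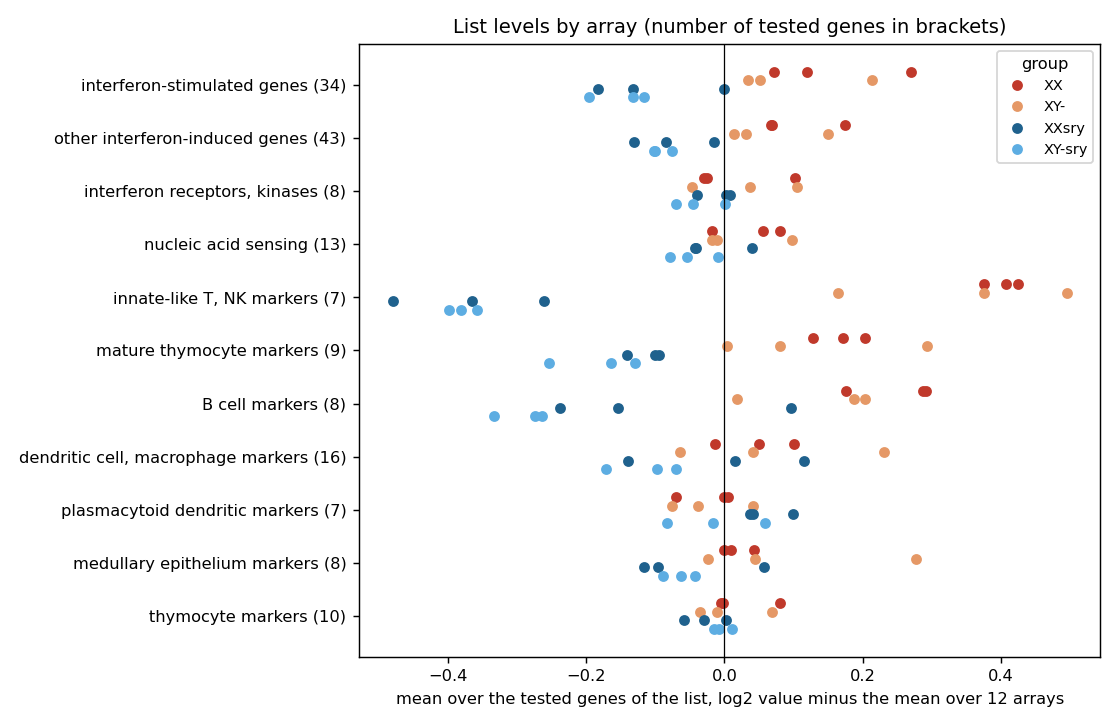
Mean log2 deviation over the tested genes of a list on each of the 12 arrays (horizontal axis; each point is an array, coloured by group), for the 34 tested interferon-stimulated genes, 3 other pathway lists and 7 lists of cell type markers. Every XX and XY- array is above every XXsry and XY-sry array for the interferon-stimulated genes and the other interferon-induced genes. The same holds for the markers of innate-like T and mature thymocytes, whereas the thymocyte markers overlap.

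Markers of cell types that a thymus holds moved with the sexes as well. Over all tested probe sets, 2.61% were called lower in males and 3.95% higher. Of the markers of innate-like T and natural killer cells, 6 of 7 tested were lower in males (among them Cxcr6 at -1.49, Klrd1 at -1.26 and Cxcr3 at -1.14), while Gzma was higher, and the mean level of that list was 0.16 to 0.49 in female arrays and -0.48 to -0.26 in male arrays. Tbx21, Ncr1 and Zbtb16, which define these cells, were under the level limit. Markers of mature single-positive thymocytes were lower for 6 of 9, with arrays at 0.00 to 0.29 in females and -0.25 to -0.09 in males. B cell markers were lower for 4 of 8 (0.02 to 0.29 in females, -0.33 to 0.10 in males), with Pax5, Ebf1 and Blk under the limit. Neutrophil markers gave 0 of 6 called in limma. An unadjusted p under 0.05 was found for 5, all lower, against 9.82% of all tested probe sets (24.9% in either direction). The neutrophil markers ranged from -0.17 to 1.51 in females and -1.11 to 0.16 in males. Their highest arrays, XY- replicate 3 (1.51) and XX replicate 1 (0.76), were also the highest for the 34 interferon-stimulated genes, in the reverse order. XY- replicate 3 was the highest array for other markers too: mature thymocytes (0.29), medullary epithelium (0.28), and dendritic cells and macrophages (0.23).

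The remaining lists moved less or the other way, and their counts stand beside the same shares of all tested probe sets (2.61% lower, 3.95% higher). Thymocyte markers gave 1 of 10 lower, Rag2 at -0.19, and ranged from -0.03 to 0.08 in females and -0.06 to 0.01 in males. Medullary epithelium gave 1 of 8 lower (Krt17, with Aire at -0.25 and adjusted p = 0.0594), and ranged from -0.02 to 0.28 in females and -0.12 to 0.06 in males. Cortical epithelium gave 4 of 10 higher in males (Isl1, Il7, Dll4 and Cxcl12). Its arrays stood at -0.20 to -0.03 in females and 0.02 to 0.17 in males, without overlap. Conventional dendritic cells and macrophages gave 0 of 16, from -0.06 to 0.23 in females and -0.17 to 0.11 in males. Of these 16, 4 had an unadjusted p under 0.05 in limma, all lower. Of all tested probe sets, 24.9% passed that cut in either direction and 9.82% were lower. Plasmacytoid dendritic cells, which secrete type I interferon in infection, gave 1 of 7 (Ly6d, higher), with Siglech under the limit at a mean of 4.57. The part of these cell types in the lower levels of interferon-stimulated genes was not tested.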

How the data were processed

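The deposited values are log2 probe set levels on a 1-colour Affymetrix mouse array of 45101 probe sets, 64 of them controls. Per the submitters' processing notes the authors used RMA, and the sources used here give no version. Per the labels' protocols, 10 µg of total RNA was labelled. RMA corrects background and puts all arrays on a common distribution, so a shift shared by all genes would not be visible. Probe sets were named through the platform annotation, in which 34958 had 1 gene symbol, 932 several and 9211 none, and only those with 1 symbol stood for a gene. The members and lists were chosen with earlier results of these data known.

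The 17925 probe sets whose mean over the 12 arrays reached a log2 value of 5 were fitted in limma 3.58.1 (R 4.3.3) with 4 group means, 8 residual degrees of freedom and empirical Bayes moderation. Contrasts were averaged or taken within a complement, and p-values were adjusted over all tested probe sets by Benjamini-Hochberg at 0.05. Intervals are 95%. Within-complement contrasts and the average share arrays, as do the contrasts between complements. The model was tested on simulated data. Array values are given for the 8 genes with the smallest p for the sex difference and for those among the 3 smallest p for the interaction or the complement. For other lists, up to 6 called genes with the smallest p are given with values, or the gene with the highest mean signal where none was called. The markers and other genes mentioned beyond that were chosen after their values were seen. The labels do not say that replicate numbers pair arrays, so the numbers were not used as a block. Alternatives changed the level limit, scaling, variance model, array weights, probe set choice, arrays in the fit, the block and the actin covariate, and left out each array. Labels call the replicates biological, and p-values measure the spread between these samples. Figures were drawn with matplotlib 3.10.9 in Python 3.11.15.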

Additional observations from a re-analysis of the deposited data

How the results depend on the processing

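Counts are of the 34 tested genes called, each with the share of all tested probe sets called in that fit. For males against females the count of 18 (6.56%) became 9 (1.54%) with no filter on low values. With the actin difference as a covariate it was 8 (4.83%). When 1 array was left out it was between 7 and 20 (2.91% to 9.73%). For the effect in XX the count of 2 (0.742%) became 0 (0.209%) with no filter. With each array centred on its median it was 1 (0.563%), and with array weights 23 (7.36%). It was 0 to 4 with 1 array left out (0.206% to 1.27%). For the effect in XY- the count of 5 (8.64%) became 3 (2.77%) with no filter and 3 (10.9%) with median centring. It was 8 (8.45%) with quantile normalisation, 9 (10.2%) with an intensity trend and robust settings, and 11 (23.7%) with array weights. It was 1 (0.402%) with only the groups compared and 0 (0.301%) with the actin covariate. With 1 array left out it was 1 to 7 (3.01% to 8.51%). Array weights gave 3 (8.24%) in place of 0 for XX against XY- without Sry, and 2 (7.10%) in place of 0 for the interaction (Socs1 and Rsad2), both close to the share of all probe sets. With all probe sets of a gene averaged, the interaction gave 1 (0.862%), Ly6e, and Ly6e in XY- turned from above zero to -0.42 (adjusted p = 0.0108, limma), because its probe sets differ in sign. The comparisons of XX with XY- averaged over Sry and with Sry gave 0 in every alternative run. The shares there were 0.0507% to 0.167% averaged over Sry and 0.0507% to 2.91% with Sry. With no filter more probe sets are tested, and with only the groups compared fewer arrays enter. The cause of the other moves was not tested. A change of sign of a difference called in neither setting was not counted as a reversal.

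With the replicate number as a block the counts were 17 (7.35%) for males against females, 1 (0.658%) in XX and 4 (9.02%) in XY-. The interaction gave 0 (2.1%), as did each comparison of complements (0.1% to 0.669%). Shares in brackets are of all tested probe sets. Deviations from group means correlated above 0.1 in 8 of 18 pairs of same-numbered arrays (median 0.04) and in 4 of 36 pairs with different numbers (median -0.02), with same-numbered pairs from -0.08 to 0.31. Same-numbered pairs thus passed 0.1 more often, and whether these arrays share a processing step was not tested. The labels do not pair the arrays, so the numbers were not treated as a pairing.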
